A study of Mus musculus with 6 samples.

Results

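The genes described here are the gene for Kif1-binding protein (KBP), listed in the files as 2510003E04Rik and now named Kifbp, and 6 genes for proteins that acetylate or ubiquitinate other proteins: Fbxo15, Skp1a, Cul1, Rbx1, Kat2a and Kat2b. They were taken by symbol from the table of raw counts, where all 7 are present among 23420 gene symbols. RNA was sequenced from mouse embryonic stem (ES) cells kept in self-renewing conditions. Both groups carried a stably integrated lentivirus: 3 libraries (replicates 1, 2 and 3) came from cells given wild-type KBP, and 3 (replicates 4, 5 and 6) from cells given KBP(KK/RR), a mutant the labels describe as stable. Cells without a virus are not among these samples, so every difference is between cells that received one form of KBP and cells that received the other. The labels name no clone, promoter of the virus or separate culture behind the libraries, so the p-values measure only the spread between these libraries, which may be technical.

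KBP is known as a protein that binds kinesin motor domains and keeps them from engaging microtubules, and as a protein linked to mitochondrial distribution. An SCF ligase joins ubiquitin to its substrates through a cullin scaffold (CUL1), an adaptor (SKP1), a RING subunit that recruits the charged E2 enzyme (RBX1) and an interchangeable F-box protein that picks the substrate. FBXO15 is an F-box protein long used as a marker of undifferentiated mouse ES cells, and the published work on this protein, as background that the labels do not give, placed KBP among its substrates, with acetylation of KBP marking it for the ligase. KK/RR stands for lysines replaced by arginines, which can be neither acetylated nor ubiquitinated. KAT2A (GCN5) and KAT2B (PCAF) are paralogous lysine acetyltransferases, best known for acetylating histones within the SAGA and ATAC complexes. That work, which was not at hand here, is known for assigning the acetylation of KBP to GCN5L1, the product of Bloc1s1, which shares part of its name with GCN5 but is a different protein, and Bloc1s1 is therefore described beside the 7 genes.

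By the RefSeq annotation of GRCm38.p6, the KBP gene lies on chromosome 10, 62558470 to 62579066, on the minus strand. Skp1a (now Skp1) lies on chromosome 11, 52230522 to 52246858, Cul1 on chromosome 6, 47453732 to 47526144, and Rbx1 on chromosome 15, 81466316 to 81476369, all on the plus strand. Kat2a lies on chromosome 11, 100704746 to 100712485, on the minus strand, and Kat2b on chromosome 17, 53566774 to 53672721, on the plus strand. All 7 genes are protein-coding, and a count covers the whole gene. In GENCODE M21 the exons of the KBP gene share 494 bases with those of an antisense gene, 4933428P19Rik, whose symbol was not found in the count table. Of the 50-base stretches of the longest KBP transcript, searched on both strands, 16.6% match that gene's transcripts. The strand setting of the counting is not given in the sources used here, so reads of that stretch cannot be assigned to a strand. Of the same stretches, 7.75% for Kat2b, 2.52% for Skp1a and 2.79% for Rbx1 also occur in transcripts of another gene (Kat2b-ps, Gm12988 and Rbx1-ps), and 0 do for Fbxo15, Kat2a and Cul1. Reads from such stretches can be lost or shared in counting.

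RefSeq promoter windows (GRCm38.p6, 250 bases before to 50 after the annotated start) were found for 6 of the 7 genes, and those of the KBP gene and Skp1a are shown because their transcripts were the ones most clearly higher in KBP(KK/RR) cells. Capitals mark matches to 6 motifs searched on both strands: the CCAAT box (CCAAT), the cAMP response element (TGACGTCA), the TATA box (TATAAA), the GC box (GGGCGG), the E-box (CACGTG) and the octamer (ATGCAAAT). The KBP window is chr10:62578408-62578707 on the minus strand, and the Skp1a window is chr11:52231745-52232044 on the plus strand. Both windows lie inside the gene spans given above, not at their 5' ends. The distances below are therefore to an annotated start within each gene span.
KBP gene: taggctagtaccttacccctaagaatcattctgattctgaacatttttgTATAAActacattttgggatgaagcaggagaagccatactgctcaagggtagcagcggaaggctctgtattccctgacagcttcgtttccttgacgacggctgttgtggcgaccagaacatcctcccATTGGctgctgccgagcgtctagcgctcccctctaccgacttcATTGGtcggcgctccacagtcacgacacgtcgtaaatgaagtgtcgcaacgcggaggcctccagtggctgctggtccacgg
Skp1a: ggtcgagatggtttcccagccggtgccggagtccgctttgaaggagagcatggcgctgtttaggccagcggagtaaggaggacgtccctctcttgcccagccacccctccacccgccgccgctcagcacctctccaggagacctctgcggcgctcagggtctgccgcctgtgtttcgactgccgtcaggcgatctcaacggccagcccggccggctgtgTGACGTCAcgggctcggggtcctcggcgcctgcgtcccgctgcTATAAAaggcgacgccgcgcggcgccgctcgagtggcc
The KBP window, with a GC content of 53.3%, held 2 CCAAT boxes read on the opposite strand, beginning 74 and 31 bases before the start, and a TATAAA match 201 bases before it. The Skp1a window, with a GC content of 69.0%, held the full cAMP response element, which is palindromic, beginning 31 bases before the start, and a TATAAA match beginning at base 13 after it. Of all 32851 promoter windows, 37.4% held a CCAAT box, 13.6% TATAAA and 1.79% the cAMP response element. The 2 windows had in common only TATAAA among the 6 motifs. These matches are letters in the reference and were not measured in the cells.

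Library totals ran from 24131743 to 32160411 counts, and 14340 genes passed the filter on low counts, all 7 genes among them. Levels are given as CPM, a gene's share of its library's counts on the usual CPM scale, after TMM scaling, which equalizes the bulk of genes between libraries. The ES cell markers Pou5f1, Nanog and Sox2 measured 1451 ± 58.9, 313 ± 9.93 and 386 ± 14.3 CPM with wild-type KBP and 1435 ± 55.8, 334 ± 9.61 and 400 ± 21.9 CPM with KBP(KK/RR) (mean ± SD, n = 3 each). None of 8 ES cell markers passed in edgeR or DESeq2, and 3 had an unadjusted p under 0.05, Nanog (log2 fold change 0.10), Esrrb (-0.09) and Klf4 (-0.09), so they did not move 1 way. The summed level of the 8 was 5467 to 5577 CPM with wild-type KBP and 5406 to 5696 CPM with KBP(KK/RR). That of 7 primitive endoderm markers was 18.3 to 21.7 and 15.9 to 18.8 CPM, and that of 8 fibroblast or feeder markers 41.2 to 46.8 and 46.6 to 49.9 CPM. Among these, Pdgfra fell (log2 fold change -0.68, edgeR adjusted p = 0.0342) and Tagln rose (0.23, edgeR adjusted p = 0.0379). DESeq2, limma-voom and limma on the authors' signal called 0 of either list, as did edgeR without replicate 2, 3, 4 or 6. Tagln, at a mean of 30.6 CPM, made up most of the fibroblast or feeder sum. Of 5 tested markers in that list 4 had a positive log2 fold change, and Col1a1 was at -0.17. No marker was at 0 in all libraries, and the part of these markers in the results was not tested. The libraries' second principal component, with 20.8% of the variance, set replicate 3 of wild-type KBP apart, and values without that library stand beside those of the KBP gene, Fbxo15 and Skp1a. In bulk RNA, fewer cells expressing a gene and less RNA per cell cannot be told apart.

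Transcripts of the KBP gene were slightly more abundant in cells given KBP(KK/RR). The level was 48.3, 47.0 and 49.6 CPM in wild-type KBP replicates 1, 2 and 3, and 56.3, 59.6 and 53.9 CPM in KBP(KK/RR) replicates 4, 5 and 6. The groups did not overlap, as was so upward for 11.8% of all tested genes, and replicate 5 was the highest library. The gap between the nearest libraries of the groups was larger than the range within the wild-type group. It was smaller than the range within the KBP(KK/RR) group. The fold change was 1.17 (95% interval 1.09 to 1.26), a log2 fold change of 0.23 (SE 0.05, edgeR adjusted p = 0.0133). Of all tested genes 3.12% passed the same threshold, 1.05% as higher and 2.07% as lower. The higher genes made up 33.7% of these calls with TMM and 53.4% with upper-quartile factors. The raw counts behind these levels were 1263, 1508 and 1189 against 1676, 1461 and 1602. Counting alone gives a coefficient of variation of 2.75% and 2.52% at these depths, where the libraries varied by 2.69% with wild-type KBP and 5.08% with KBP(KK/RR). The wild-type libraries thus varied about as much as counting alone would give. The count adds endogenous transcripts to any from the virus that align to the gene, which the table does not separate. Without the wild-type replicate 3 the log2 fold change was 0.25 (edgeR adjusted p = 0.0212). It no longer passed the threshold when replicate 2 of the wild-type group was left out of the edgeR fit (adjusted p = 0.0908), or when replicate 5 of the mutant group was (adjusted p = 0.0735).

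**Figure D1:**
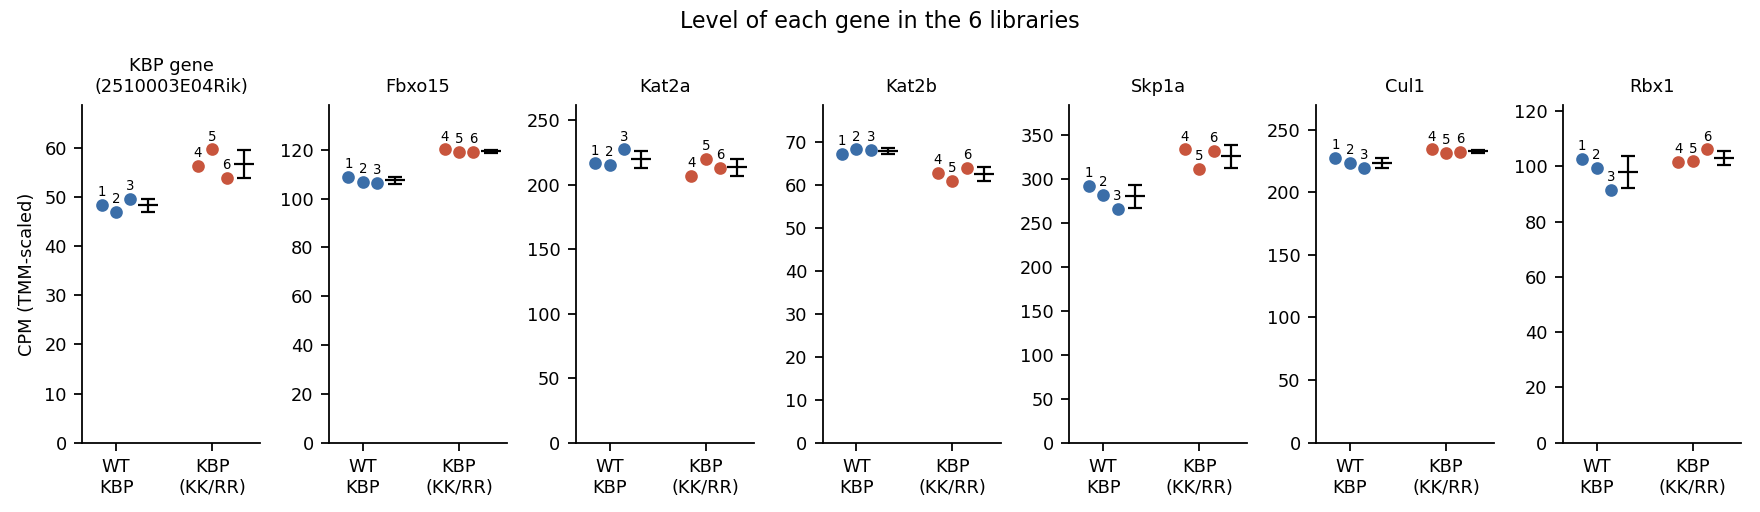
CPM of each of the 7 genes in each library (points, numbered by replicate; blue, wild-type KBP; red, KBP(KK/RR)), with the mean ± SD of 3 libraries beside the points; every axis starts at 0. The groups stand apart for the KBP gene, Fbxo15, Skp1a and Cul1, which were higher with KBP(KK/RR), and for Kat2b, which was lower, whereas Kat2a and Rbx1 overlap.

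Among the subunits of the ligase, the substrate receptor and the adaptor rose, and the scaffold and the RING subunit did not pass the test. Fbxo15, the substrate receptor, lies on chromosome 18, 84934552 to 84981476, on the plus strand. It measured 109, 107 and 106 CPM with wild-type KBP and 120, 119 and 119 CPM with KBP(KK/RR). Its mutant libraries were the closest together of the 7 genes, at a coefficient of variation of 0.499% where counting alone gives 1.73%. A spread below that of counting does not measure how tightly the gene is held. Its fold change was 1.11 (95% interval 1.05 to 1.18; log2 fold change 0.15, SE 0.04, edgeR adjusted p = 0.0400). The rise of Fbxo15 was small, and its adjusted p was close to the threshold. Its groups did not overlap, as was so upward for 11.8% of all tested genes. Leaving out any library but KBP(KK/RR) replicate 4 took the edgeR adjusted p above 0.05 (0.0718, 0.165 and 0.101 without wild-type KBP replicates 1, 2 and 3, and 0.0862 and 0.141 without KBP(KK/RR) replicates 5 and 6), with log2 fold changes of 0.15 to 0.16. Removing a trend on transcript length and GC content lowered the log2 fold change to 0.11 (edgeR adjusted p = 0.0520), and limma-voom gave an adjusted p of 0.0525.

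Skp1a, the adaptor that bridges cullin and F-box protein, had the smallest p of the 7 genes. It measured 292, 282 and 267 CPM with wild-type KBP and 334, 311 and 333 CPM with KBP(KK/RR). The lowest mutant library, replicate 5, was still above the highest wild-type library, a pattern that 11.8% of all tested genes showed. Wild-type replicate 3 was the lowest of all. The fold change was 1.16 (95% interval 1.09 to 1.24; log2 fold change 0.22, SE 0.04, edgeR adjusted p = 0.00545). Without wild-type replicate 3 the log2 fold change was 0.18 (edgeR adjusted p = 0.0263), and without KBP(KK/RR) replicate 6 it was 0.20 with an adjusted p of 0.0608, past the threshold no longer.

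Cul1, the scaffold, measured 228, 224 and 219.5 CPM with wild-type KBP and 234, 231 and 232 CPM with KBP(KK/RR). Its groups did not overlap, as was so for 22.4% of all tested genes, but the difference was small (log2 fold change 0.06, 95% interval -0.02 to 0.14, edgeR adjusted p = 0.442). Rbx1, the RING subunit, measured 103, 99.5 and 91.4 CPM with wild-type KBP and 102, 102 and 106 CPM with KBP(KK/RR). The groups overlapped, with wild-type replicate 3 the lowest library (log2 fold change 0.07, 95% interval -0.02 to 0.17, edgeR adjusted p = 0.411). Without that library the log2 fold change of Rbx1 was 0.03. For Cul1 the interval reaches from a fold change of 0.985 to 1.099, and for Rbx1 from 0.985 to 1.13. Both overlap the intervals of the KBP gene, Skp1a and Fbxo15, whose lower ends are 1.090, 1.094 and 1.05. The intervals do not test a difference between genes. After correction for length and GC the log2 fold changes were 0.02 for Cul1 and 0.03 for Rbx1. The same correction lowered that of Skp1a to 0.16 (edgeR adjusted p = 0.00238) and that of the KBP gene to 0.21 (0.00351).

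The 2 acetyltransferase genes had negative log2 fold changes and did not pass the test. Kat2a measured 216, 215 and 227 CPM with wild-type KBP and 207, 220.1 and 213 CPM with KBP(KK/RR). The groups overlapped (log2 fold change -0.04, 95% interval -0.12 to 0.04, edgeR adjusted p = 0.621). Kat2b measured 67.1, 68.2 and 68.1 CPM with wild-type KBP and 62.7, 60.9 and 63.9 CPM with KBP(KK/RR). Every mutant library was below every wild-type library, a pattern that 10.5% of all tested genes showed, and the log2 fold change was -0.12 (SE 0.05, 95% interval -0.21 to -0.02). The unadjusted p was 0.0166 and the edgeR adjusted p 0.166, so Kat2b was not called. Over 15 other fits its log2 fold change ran from -0.13 to -0.10 and its adjusted p from 0.0768 to 0.422. Bloc1s1, the gene for GCN5L1, measured 20.1, 19.8 and 17.7 CPM with wild-type KBP and 21.1, 19.7 and 21.2 CPM with KBP(KK/RR). Those groups overlapped as well (log2 fold change 0.10, 95% interval -0.04 to 0.24, edgeR adjusted p = 0.429), and the value was 0.05 without replicate 3.

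In all, 3 of the 7 genes rose, 0 fell, and 4 were not called, against 3.12% called among all tested genes. The groups stood apart upward for 4 (11.8% of all tested genes) and downward for 1 (10.5%). An unadjusted p under 0.05 was reached by 4 (18.6% of all tested genes), of which 3 were higher (8.32%). Their median log2 fold change was 0.07, where that of all tested genes was -0.0022, and it was 0.03 after correction for length and GC. Since the 7 genes were picked with earlier results of these libraries known, this count is a description only. DESeq2 called the same 3 genes, as did edgeR with RLE or upper-quartile factors, with library totals and with either other filter on low counts. Limma-voom, limma on the authors' signal and edgeR with the length and GC trend removed called 2, not Fbxo15. With 1 library left out, edgeR called from 1 to 3.

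**Figure D2:**
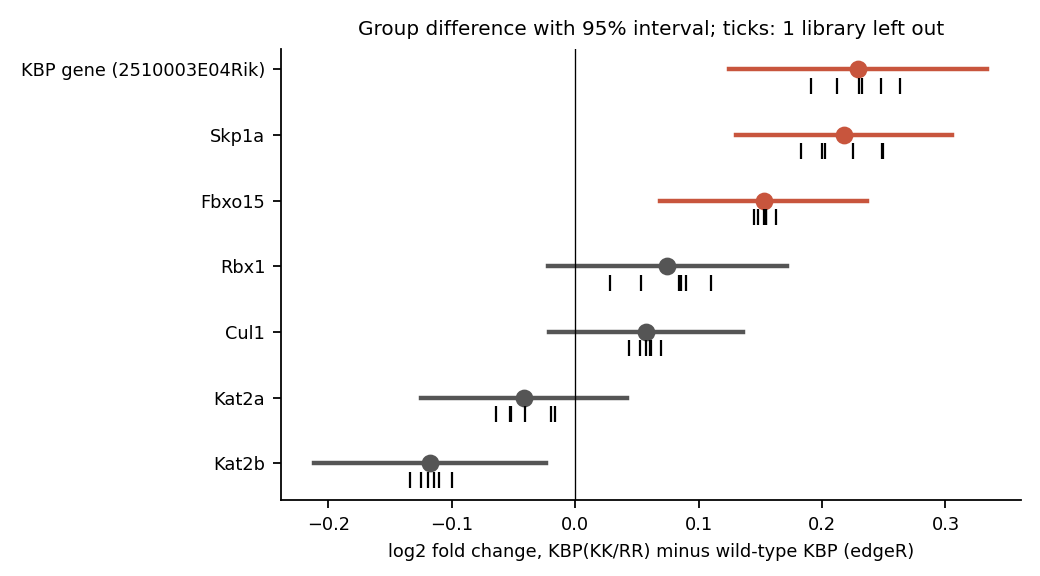
Log2 fold change (KBP(KK/RR) minus wild-type KBP) of the 7 genes with its 95% interval from edgeR (circle and line; red, adjusted p under 0.05) and the estimates with 1 library left out (ticks below). The KBP gene, Skp1a and Fbxo15 lie at 0.23, 0.22 and 0.15, and none of their ticks reaches 0.

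Within a group, the order of the libraries differed between genes. Among the KBP(KK/RR) libraries, replicate 5 had the highest level of the KBP gene and of Kat2a and the lowest of Skp1a, Cul1 and Kat2b. Among the wild-type libraries, replicate 3 had the highest level of the KBP gene and of Kat2a and the lowest of Skp1a, Cul1, Rbx1 and Fbxo15. The ratio of 2 genes within a library does not depend on how libraries are scaled, and 4 such ratios were compared. Counts of Skp1a were 1.28, 1.26 and 1.21 times those of Cul1 with wild-type KBP and 1.43, 1.35 and 1.43 times with KBP(KK/RR). The adaptor thus stood higher relative to the scaffold in every mutant library, by 0.16 on the log2 scale. The two-sided exact permutation test gave p = 0.1, the smallest that 3 libraries against 3 allow (adjusted over the 4 ratios, 0.267). Counts of the KBP gene were 0.443, 0.439 and 0.466 times those of Fbxo15 with wild-type KBP and 0.469, 0.501 and 0.453 times with KBP(KK/RR). Those groups overlapped, with a difference of 0.08 on the log2 scale (exact permutation p = 0.2, adjusted 0.267), so the level of KBP transcript relative to that of its substrate receptor differed by about the spread between libraries. Rbx1 counts relative to Cul1 overlapped too (0.417 to 0.452 against 0.434 to 0.456, exact permutation p = 0.8). Kat2a counts were 3.16 to 3.34 times those of Kat2b with wild-type KBP and 3.30 to 3.62 times with KBP(KK/RR), which overlap (exact permutation p = 0.2, adjusted 0.267).

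Levels of different genes can be compared only per length, and for this CPM were divided by the length of the longest GENCODE M21 transcript in kb. Skp1a stood highest, at 173 ± 15.7 CPM per kb (mean ± SD over the 6 libraries), above 97.8% of tested genes. It was followed by Cul1 at 72.2 ± 1.79 and Kat2a at 66.2 ± 2.09 CPM per kb, whose ranges overlap. Fbxo15 came next at 44.8 ± 2.62 and Rbx1 at 37.7 ± 1.85 CPM per kb. The KBP gene was at 20.01 ± 1.90 CPM per kb, above 74.9% of tested genes, and Kat2b was lowest at 14 ± 0.665 CPM per kb. Bloc1s1, at 32.5 CPM per kb, lay between Rbx1 and the KBP gene. Its range, 28.9 to 34.6 CPM per kb, overlapped that of Rbx1, 34.3 to 39.7. Among the 7 genes alone, the ranges of neighbours in this order did not overlap, apart from Cul1 and Kat2a. The order nevertheless depends on the length used. Per kb of coding sequence Rbx1 rose to the second place (310.2 CPM per kb), and per kb of all exons joined the KBP gene became the lowest (10.7 CPM per kb) and Kat2a passed Cul1 (62.2 against 56.5 CPM per kb). Skp1a was the highest of the 7 by each of the 3 lengths.

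**Figure D3:**
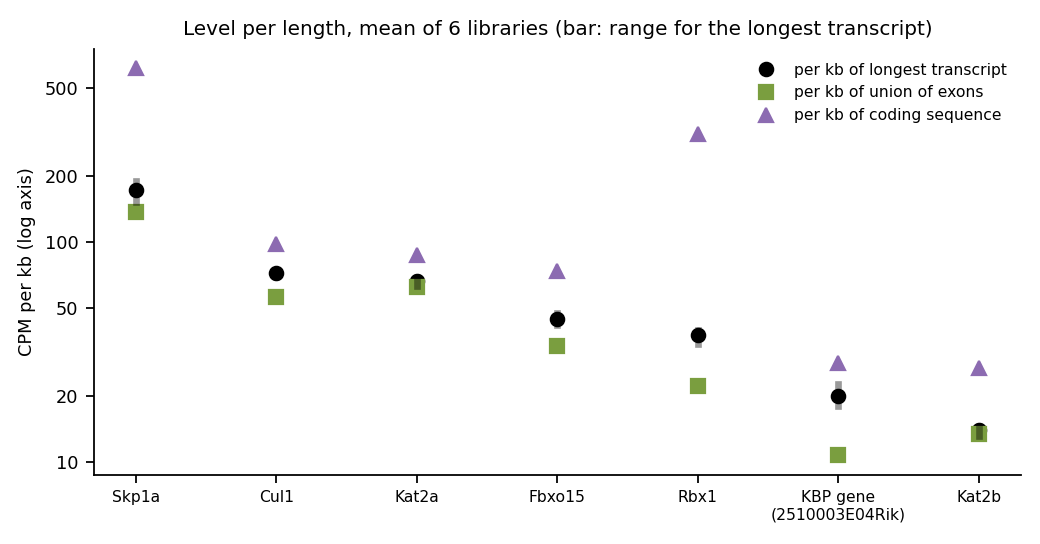
Mean CPM per kb over the 6 libraries (log axis) of the 7 genes, for 3 measures of length, with the range over libraries for the longest transcript. Skp1a is the highest by each measure, and Rbx1 moves the most, from 37.7 CPM per kb of the longest transcript to 310.2 CPM per kb of its short coding sequence.

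The genes whose profile over the 6 libraries was most like that of the KBP gene were found by the root mean square difference of log2 CPM, each gene centred on its own mean, among 10300 genes of sufficient level. They were Gtsf1l (0.0257), Rp2h, which encodes a GTPase-activating protein for the small GTPase ARL3 (0.0266), and Abhd5, which encodes an activator of triglyceride breakdown on lipid droplets (0.0268). The median over the ranked genes was 0.140 and the SD of the KBP gene's own log2 CPM was 0.135. Gtsf1l measured 18.5, 18.6 and 19.8 CPM with wild-type KBP and 22.1, 23.2 and 20.5 CPM with KBP(KK/RR), again with replicate 5 highest. Of the other 6 genes, Fbxo15 was the nearest to the KBP gene (0.0628), followed by Skp1a (0.0911), and Kat2b the farthest (0.186).

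The genes around these 7 gave few calls: of 124 tested genes in 10 lists, 2 rose and 0 fell in edgeR, or 1.61% against 3.12% of all tested genes. The median log2 fold change over them was 0.02, and 21 had an unadjusted p under 0.05, a level that 18.6% of all tested genes reached. A positive log2 fold change was found in 75 of the 124, and in 49.2% of all tested genes. On the side of KBP, 0 of 11 kinesins and stathmin partners passed, and the one with the smallest p was Kif1a, an axonal transport kinesin (22.9 ± 1.30 against 25.7 ± 1.76 CPM, log2 fold change 0.17, edgeR adjusted p = 0.168). DESeq2 called 0 of that list, in which 3 genes reached an unadjusted p under 0.05. Besides Kif1a these were Kif14 (log2 fold change -0.14) and Kif1b (-0.16), which were lower. Of the 11 genes 5 had a positive log2 fold change, with a median of -0.0023. Kif1a passed after correction for transcript length and GC (0.29, edgeR adjusted p = 0.00156), under which Kif14 and Kif1b were each at -0.04. In edgeR without a filter on low counts, Kif1b was called. Both Kif1b and Kif14 were called without KBP(KK/RR) replicate 4. Stmn2, the gene for the microtubule regulator SCG10, measured 257 ± 6.10 and 260.3 ± 3.45 CPM (0.02).

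On the side of acetylation, Hat1, which encodes the acetyltransferase of newly made histone H4, rose from 262 ± 5.08 to 291 ± 10.2 CPM (log2 fold change 0.15, SE 0.04, edgeR adjusted p = 0.0352). It was the member called among 9 other lysine acetyltransferases, of which 3 had a positive log2 fold change, with a median of -0.11. An unadjusted p under 0.05 was reached by 3 of them. At the low end of this list, and picked out after its value was seen, Crebbp, the gene for the coactivator CBP, had a log2 fold change of -0.35 (71.8 ± 6.96 against 56.2 ± 6.31 CPM, edgeR adjusted p = 0.121). Crebbp has a transcript of 10.8 kb, was called lower by DESeq2 and limma-voom, and had a log2 fold change of -0.21 (edgeR adjusted p = 0.00413) after correction for length and GC. Hat1, with its shorter transcript, lost its call under that correction (0.10, edgeR adjusted p = 0.0724), and also when replicate 2 (adjusted p = 0.155), 3 (0.0829), 5 (0.0584) or 6 (0.224) was left out. The Hat1 call was lost as well with limma-voom (adjusted p = 0.0529) and with limma on the authors' signal (0.0602). Besides Hat1 and Crebbp, Kat6b had an unadjusted p under 0.05 (log2 fold change -0.17, edgeR adjusted p = 0.116). Kat6a was at -0.24 (edgeR adjusted p = 0.270) and passed after correction for length and GC (-0.14, edgeR adjusted p = 0.0378). Both Kat6a and Kat6b were called in edgeR without a filter on low counts. Of 7 tested BLOC-1 genes, which include Bloc1s1, all had positive log2 fold changes where 49.2% of all tested genes did, but 0 passed, and their median of 0.05 was 0.02 after correction for length and GC. The smallest p there was that of Dtnbp1, the gene for dysbindin (9.79 ± 0.182 against 11.3 ± 0.376 CPM, 0.21, edgeR adjusted p = 0.149).

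The partners of KAT2A and KAT2B in the SAGA and ATAC complexes gave 0 calls of 25 in edgeR and in DESeq2, 0 with an unadjusted p under 0.05, and a median log2 fold change of -0.0020. Eny2, a subunit of the SAGA deubiquitinase module, had the smallest p among them (45.0 ± 4.05 against 49.4 ± 4.01 CPM, 0.13, edgeR adjusted p = 0.317). Its value was 0.06 without replicate 3 and 0.06 without replicate 4. Of 18 lysine deacetylases, which remove the mark, 0 passed in edgeR or DESeq2 and 2 had an unadjusted p under 0.05. Hdac1 was foremost, at 334 ± 5.68 and 356 ± 4.05 CPM (0.10, edgeR adjusted p = 0.170). Of 10 enzymes that supply acetyl-CoA or break down threonine, 0 passed in edgeR or DESeq2 and 1 had an unadjusted p under 0.05, Dlat, the E2 subunit of pyruvate dehydrogenase (0.10, edgeR adjusted p = 0.243). Tdh, the threonine dehydrogenase gene on which mouse ES cells depend, measured 392, 399 and 425 CPM with wild-type KBP and 386, 406 and 413 CPM with KBP(KK/RR). Its groups overlapped, and its log2 fold change of -0.01 (edgeR adjusted p = 0.891) turned positive with upper-quartile factors and when replicate 3 or replicate 4 was left out.

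On the side of the ligase, Cops5, which encodes the subunit of the COP9 signalosome that removes NEDD8 from cullins, rose from 125 ± 3.94 to 140.3 ± 5.36 CPM (log2 fold change 0.16, SE 0.04, edgeR adjusted p = 0.0372). Its libraries stood at 127, 127 and 121 CPM with wild-type KBP and at 135, 139.9 and 146 CPM with KBP(KK/RR). They did not overlap, as was so upward for 11.8% of all tested genes. It was the call among 12 genes of the signalosome and of cullin exchange, of which 9 had a positive log2 fold change (49.2% of all tested genes did) and 6 an unadjusted p under 0.05 (18.6% of all tested genes), with a median of 0.07. The Cops5 call held without KBP(KK/RR) replicate 4 and was lost without each of the other libraries (edgeR adjusted p 0.0565 to 0.227, with 0.127 without replicate 3). It was also lost with limma-voom (adjusted p = 0.0589) and with limma on the authors' signal (0.0625). Of 11 genes for attaching NEDD8 to cullins, 10 had a positive log2 fold change with a median of 0.06, and 0 passed in edgeR or DESeq2, with 1 at an unadjusted p under 0.05. That gene was Dcun1d5, a co-E3 of neddylation (48.3 ± 2.11 against 52.2 ± 2.18 CPM, 0.11, edgeR adjusted p = 0.244). Of the other cullins and the second RING partner, 0 of 8 passed in edgeR or DESeq2 and 1 had an unadjusted p under 0.05. This was Rnf7, the RING partner of CUL5 (96.2 ± 2.62 against 105 ± 3.41 CPM, 0.12, edgeR adjusted p = 0.125). Per kb of longest transcript, Cul4b (144 CPM per kb) was above Cul1 (72.2 CPM per kb), and the 6 other cullins were between 0.518 and 34.4 CPM per kb. Of 13 ubiquitin, E1, E2 and ARIH genes that serve the ligase, 0 passed in edgeR or DESeq2 and 3 had an unadjusted p under 0.05, the smallest p being that of Rps27a, which encodes ubiquitin fused to a ribosomal protein (754 ± 44.5 against 810 ± 19.4 CPM, 0.10, edgeR adjusted p = 0.188). The Rps27a value was 0.05 without replicate 3 and 0.03 after correction for length and GC, under which Rnf7 was at 0.07 and Dcun1d5 at 0.06.

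**Figure D4:**
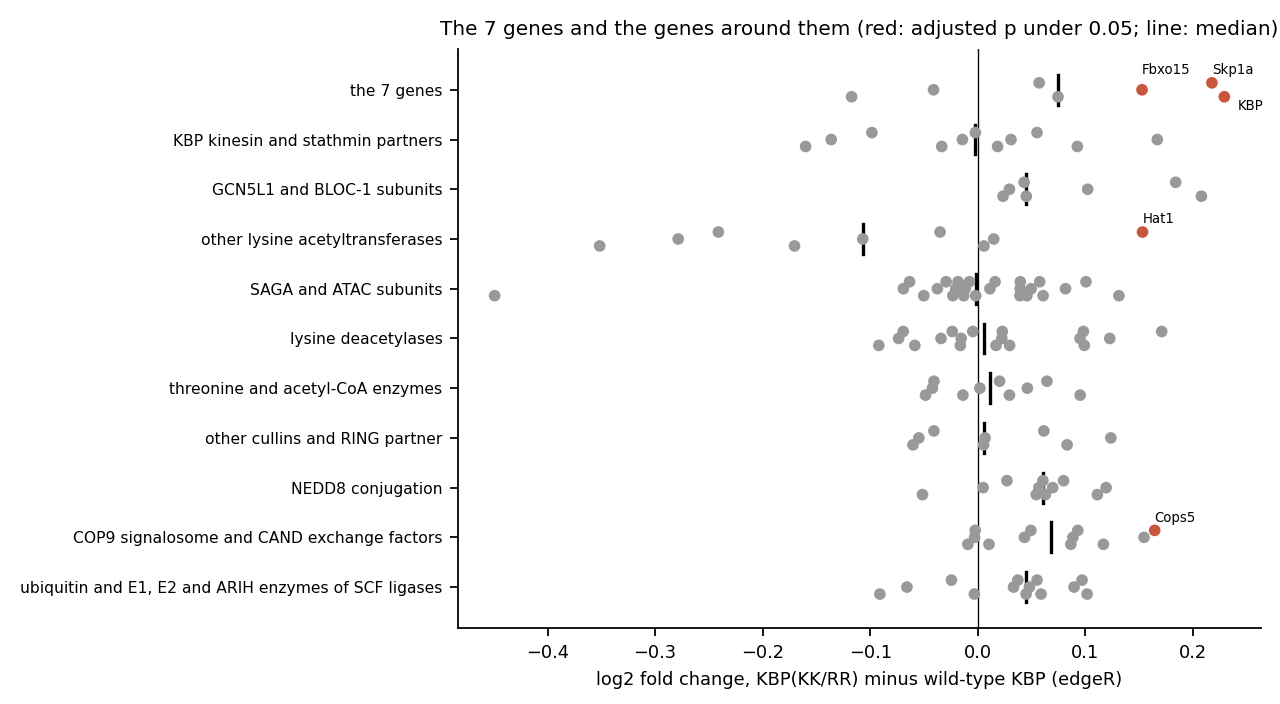
Log2 fold change (KBP(KK/RR) minus wild-type KBP) of the 7 genes and of the tested genes of 10 lists around them (points; red, edgeR adjusted p under 0.05; vertical line, median of the list). Outside the 7 genes, Hat1 and Cops5 passed the test, and the medians of the lists lie between -0.11 and 0.07.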

How the data were processed

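Per the labels' protocols, ribosomal RNA was removed and ScriptSeq v2 libraries were sequenced from 6 samples. The submitters' processing notes name bcl2fastq, TopHat, HTSeq and DESeq2 and the builds mm10 and GRCm38, with no versions; no source used here gives the annotation, the strand setting or filters. One deposited table has unnormalized read counts by gene symbol. The other holds a deposited signal, which from its values is the count scaled by a single factor for each library.

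The counts were tested as deposited with edgeR 4.0.16 under R 4.3.3 (filterByExpr, TMM, robust quasi-likelihood fit, group as the term, 14340 genes), and Benjamini-Hochberg adjusted p under 0.05 over all tested genes was called. Rising and falling refer to KBP(KK/RR) against wild-type KBP, the SE is the absolute log2 fold change over the root of F, and intervals are 95%. Alternatives were DESeq2 1.42.0, limma 3.58.1 (voom, and log2 of the signal plus 1), other factors, filters and thresholds, a per-library trend on length and GC content (splines with 5 degrees of freedom, GENCODE M21) and each library left out. Library totals of 24131743 to 32160411 counts limit low genes most. Replicates of a group differed by more than counting noise (chi-square per degree of freedom 2.69 to 7.19), so each counted as 1 sample. The procedure was tested on simulated data.

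The members and lists were chosen with earlier results of these data known. Named are the 7 genes, Bloc1s1, Tdh, Stmn2, Pou5f1, Nanog and Sox2, from each list its called genes or else the one with the smallest p, and the 3 profiles nearest to the KBP gene among genes averaging 2 or more in log2 CPM; any further gene was picked once its value was known. RefSeq matched 21571 symbols directly and 1663 by synonym. Bloc1s2 was not analysed here.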

Additional observations from a re-analysis of the deposited data

How the results depend on the processing

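All log2 fold changes of the 7 genes kept their sign in each alternative run. With single libraries left out, that of the KBP gene ran from 0.19 to 0.26, of Fbxo15 from 0.15 to 0.16 and of Skp1a from 0.18 to 0.25. The Fbxo15 value was 0.15 with limma-voom and with limma on the authors' signal and 0.11 with the length and GC trend removed, each short of the threshold. At an adjusted p under 0.01, the KBP gene (0.23) and Fbxo15 (0.15) were not called, which left 1 of the 7. The number of the 7 called ran from 1 to 3, that of all genes from 122 to 767 and that of list genes from 0 to 7 with 1 library left out. Against 448 genes and 2 list genes, limma-voom called 270 and 1, limma on the signal 279 and 1, no filter 966 and 6, and the trend removed 692 and 4. The list gene called in both limma runs was Crebbp, and neither Hat1 nor Cops5 was kept there. At 0.01 there were 130 genes and 0 list genes, and at 0.1 there were 823 genes. Upper-quartile factors moved the share of calls that were higher from 33.7% to 53.4%, with the calls among the 7 kept. The difference in the Rbx1 to Cul1 ratio ran from -0.016 to 0.042, turning negative without replicate 3 (-0.016) or replicate 6 (-0.0015). Tdh, which ran from -0.038 to 0.022 with 1 library left out, turned positive without replicate 3 (0.022) or replicate 4 (0.014) and with upper-quartile factors (0.0045), and Stmn2 turned negative with the trend removed (-0.025). The cause of these shifts was not tested. Per kb of joined exons and of coding sequence, levels were 10.7 and 28.3 CPM for the KBP gene, 33.8 and 73.9 for Fbxo15, 62.2 and 86.96 for Kat2a, 137 and 620 for Skp1a, 56.5 and 97.97 for Cul1 and 22.1 and 310.2 for Rbx1. Kat2b was at 26.7 per kb of coding sequence. No paired analysis was possible because the groups share no replicate number. Of the 7 genes, the KBP gene had the fewest counts, 1189 to 1676 per library, and so the largest spread from counting alone (2.75% and 2.52%). Its KBP(KK/RR) libraries varied by more than that, 5.08%.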
